A study of Homo sapiens with 12 samples.

Results

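The 37 genes described here make, copy, read or stabilise the transcripts of human mitochondrial DNA (mtDNA). They are the 13 protein-coding genes that lie on mtDNA and 24 nuclear genes for its replication, its transcription, the handling of its RNA and the control of mitochondrial biogenesis, out of 37247 genes in the tables. Each gene was matched by Ensembl identifier, and all 37 had 1 row in each table. The list was chosen by gene name, with the measured treated and parent values of both cell lines already known. Values of treated against parent cells are therefore given as a description and support nothing. The comparison of the untreated lines is another contrast, which the rule for the list does not use. Its parent values were known too, so it is also given as a description. RNA was sequenced from 4 groups of 3 libraries. LC-2/ad is a line from a lung cancer, grown in RPMI-1640 mixed with F-12 and 10% fetal bovine serum, and it was sequenced after 48 h in 100 nM selpercatinib and as parent cells labelled with no treatment. TPC-1 is a line from a papillary thyroid cancer, grown in RPMI-1640 with the same share of serum, and it was sequenced after the same dose and time and as parent cells labelled with no treatment. Both lines are known to carry a fusion of CCDC6 with the receptor kinase gene RET, and selpercatinib inhibits the RET kinase. Whether parent cells received the solvent is not stated in the labels. Each line is a single model, and nothing in the labels tells if the 3 libraries in a group are separate cultures, so p-values measure only how these libraries spread.

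Mitochondrial DNA is a small circle that is read from promoters into long precursors covering most of each strand, which are then cut into separate messages, ribosomal RNAs and transfer RNAs. Its messages encode core subunits of the respiratory chain and of ATP synthase, while every factor that copies, reads, cuts or stabilises them is made from nuclear genes and imported. TFAM packs the DNA and bends its promoters, POLRMT with TFB2M starts transcription, POLG and TWNK copy the DNA, and the LRPPRC and SLIRP pair binds messages and protects them. In epithelial cancers the amount of these messages is known to differ widely between tumours.

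Several mtDNA genes share bases, which limits how reads can be assigned to them. MT-ATP8 (chrM:8366-8572) and MT-ATP6 (chrM:8527-9207) lie on 1 message and overlap by 46 bases, and MT-ND4L (chrM:10470-10766) and MT-ND4 (chrM:10760-12137) overlap by 7. The ends and starts below are shown because they mark where the TPM of the paired genes rests on the same bases, printed in capitals (GRCh38, plus strand, GENCODE 29 transcripts, chrM:8513-8572, chrM:8527-8586, chrM:10737-10766 and chrM:10760-10789):
MT-ATP8 end: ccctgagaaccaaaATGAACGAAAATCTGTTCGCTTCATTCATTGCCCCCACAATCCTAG
MT-ATP6 start: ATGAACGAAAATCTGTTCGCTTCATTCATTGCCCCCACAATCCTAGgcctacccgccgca
MT-ND4L end: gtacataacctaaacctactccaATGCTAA
MT-ND4 start: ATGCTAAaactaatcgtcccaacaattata

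Old copies of mtDNA in the nuclear genome, called NUMTs, are a further source of shared sequence. Only some copies, all on chromosome 1, were aligned here, and MTATP6P1 (chr1:633696-634376) was 98.5% identical to MT-ATP6 over 681 bases, with 10 mismatches. The 60-base stretch of this pair with the most mismatches is shown, since only reads that cross such bases tell the copies apart. Capitals mark the 3 differing bases (GRCh38, plus strand, chrM:8642-8701 and chr1:633811-633870):
MT-ATP6: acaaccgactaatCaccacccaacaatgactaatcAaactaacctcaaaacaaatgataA
MTATP6P1: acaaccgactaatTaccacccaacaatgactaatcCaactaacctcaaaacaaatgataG

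Values were deposited as TPM, the share of all transcripts that a gene takes after division by transcript length. Levels can be compared between genes only roughly, since genes on 1 message, such as MT-ATP8 and MT-ATP6, had unequal TPM. The read depth behind the values is unknown, and a library held 12554 to 14336 genes at 1 TPM or more. Library pairs within a group correlated at 0.984 to 0.990 on the log2 scale (Pearson, across genes). DUSP6, a phosphatase induced by the ERK pathway downstream of RET, averaged 12.9 ± 1.84 TPM in treated and 160 ± 2.83 TPM in parent LC-2/ad cells, and 5.91 ± 1.41 TPM in treated and 12.7 ± 1.18 TPM in parent TPC-1 cells (SD, n = 3 each). RET itself averaged 21.4 ± 0.68 TPM in treated and 16.05 ± 0.42 TPM in parent LC-2/ad cells, and 6.85 ± 0.12 TPM in treated and 7.04 ± 0.20 TPM in parent TPC-1 cells. Of 6 lung markers, NKX2-1, NAPSA, KRT7 and EPCAM had group means of at least 1 TPM in LC-2/ad, while SFTPC was listed at 0 and the means of SFTPB were below 1 TPM. In TPC-1 only KRT7 and EPCAM of these 6 had such means, and NKX2-1 and SFTPC were listed at 0. Of 5 thyroid markers, PAX8 and FOXE1 had group means of at least 1 TPM in TPC-1, and TG, TSHR and SLC5A5 did not. In LC-2/ad PAX8 and FOXE1 also had such means, as did TG in treated cells (1.12 ± 0.53 TPM). Summed lung markers ranged over 3798 to 3956 TPM in treated and 2859 to 3070 TPM in parent LC-2/ad libraries, and over 2460 to 2829 TPM in treated and 1976 to 2109 TPM in parent TPC-1 libraries. KRT7, a keratin of many epithelia, made up most of each sum, at 3376 ± 87.6 TPM in treated and 2441 ± 110 TPM in parent LC-2/ad cells, and 2657 ± 186 TPM in treated and 2034 ± 66.5 TPM in parent TPC-1 cells. EPCAM fell by 0.20 ± 0.04 in LC-2/ad. Summed thyroid markers ranged over 55.7 to 62.7 TPM in treated and 26.7 to 27.9 TPM in parent LC-2/ad libraries, and over 265 to 295 TPM in treated and 163 to 242 TPM in parent TPC-1 libraries. FOXE1 had 36.2 ± 2.02 TPM in treated and 11.6 ± 0.46 TPM in parent LC-2/ad cells, and 9.27 ± 0.49 TPM in treated and 9.11 ± 0.78 TPM in parent TPC-1 cells. Of 6 markers of blood, endothelial, fibroblast and liver cells, COL1A1 had a mean of at least 1 TPM in every group, and HBB was listed at 0 in all 12 libraries. The part of these shifts in the results below was not tested.

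In LC-2/ad cells every mtDNA message stood higher after selpercatinib than in parent cells. The 13 messages together made up 14.7%, 14.0% and 15.0% of the TPM in the 3 treated libraries, against 9.72%, 9.78% and 9.82% in the 3 parent libraries. The means were 14.6% ± 0.49 in treated and 9.77% ± 0.05 in parent cells (SD, n = 3 each), and the groups did not overlap. TPM add up to the same total in each library, so a larger share for these genes leaves less for all others. In bulk RNA, a change in which cells are present and a change in RNA per cell cannot be told apart.

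**Figure D1:**
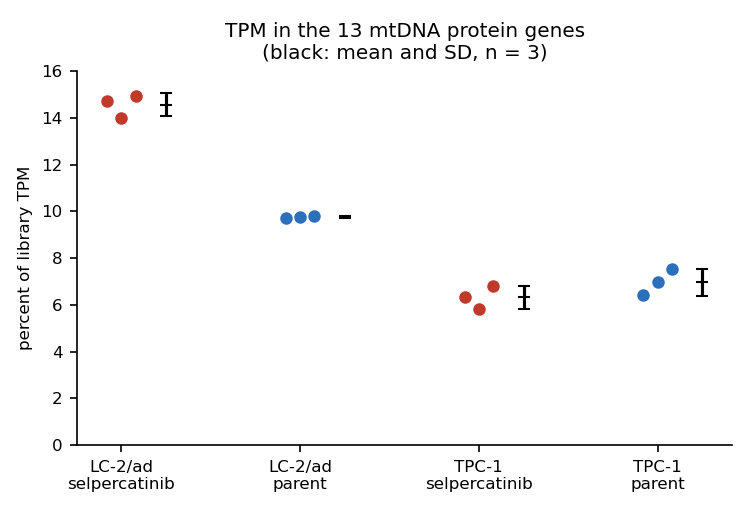
Share of library TPM in the 13 mtDNA protein genes (percent, vertical axis) in the 4 groups. Points are libraries and black bars give mean and SD (n = 3); treated LC-2/ad libraries lie at 14.0% to 15.0%, all above their parents, whereas the TPC-1 groups overlap.

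By limma with Benjamini-Hochberg adjustment over 14118 genes, 13 of 13 mtDNA genes were called higher in LC-2/ad, where 30.6% of tested genes were called higher and 24.4% lower. The fit compares log2(TPM + 1), and each log2 fold change sets selpercatinib over parent. The median log2 fold change of the 13 was 0.59, between 0.35 and 0.77, and that of all tested genes was 0.07. Treated values lay wholly above parent values for 13 of 13 genes, which was so for 35.3% of tested genes, and wholly below for 27.6% of them. Since the list was chosen with this contrast known, nothing is read from these counts.

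MT-ATP8, a small membrane subunit of ATP synthase, had the highest parent TPM in LC-2/ad, above that of MT-ATP6 on the same message. MT-ATP8 stood at 25297, 23896 and 24244 TPM in treated libraries, against 15958, 18342 and 18476 TPM in parent libraries. The lowest treated library was above the highest parent library, and the log2 fold change was 0.48 ± 0.06 (SE). MT-ND5, the largest subunit of respiratory complex I encoded on mtDNA, had the lowest parent level. It stood at 2376, 2217 and 2438 TPM in treated libraries, against 1805, 1717 and 1752 TPM in parent libraries. Its groups also lay apart, with a log2 fold change of 0.41 ± 0.04. MT-ND6 is the only message on the opposite strand, where it is read from the light-strand promoter. It stood at 2443, 2386 and 2523 TPM in treated libraries, against 1741, 1988 and 1877 TPM in parent libraries, and its log2 fold change was 0.39 ± 0.05. MT-ND6 adjoins MT-ND5, which lies on the other strand (chrM:14149-14673 beside chrM:12337-14148). Since strand use in the counting is not stated, it is unknown if reads of the other strand enter the TPM of MT-ND6. The ratio of MT-ND5 to MT-ND6 was 0.96 ± 0.02 in treated and 0.94 ± 0.09 in parent cells.

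Along the molecule the log2 fold changes were unequal. MT-ND1, the complex I gene nearest the ribosomal RNA genes, rose by 0.77 ± 0.04 on the log2 scale, with 4906 ± 233 TPM in treated and 2880 ± 48.3 TPM in parent cells. The cytochrome oxidase messages MT-CO3 (0.75 ± 0.02), MT-CO2 (0.71 ± 0.03) and MT-CO1 (0.59 ± 0.04) and cytochrome b of complex III, MT-CYB (0.68 ± 0.05), also rose, as did the complex I gene MT-ND2 (0.67 ± 0.04). MT-ATP6, the proton channel subunit of ATP synthase, rose by 0.63 ± 0.04 and MT-ND3, also of complex I, by 0.56 ± 0.08. The 4 smallest rises belonged to complex I genes that are neighbours in the gene order, MT-ND4L (0.35 ± 0.07), MT-ND4 (0.37 ± 0.04), MT-ND6 and MT-ND5. Among the 13 genes, Spearman's rho of the LC-2/ad log2 fold change was 0.64 with the GC percentage of the gene, 0.18 with its length and -0.53 with its place in the gene order. These are descriptions over 13 genes that share their libraries and, apart from MT-ND6, their precursor.

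**Figure D2:**
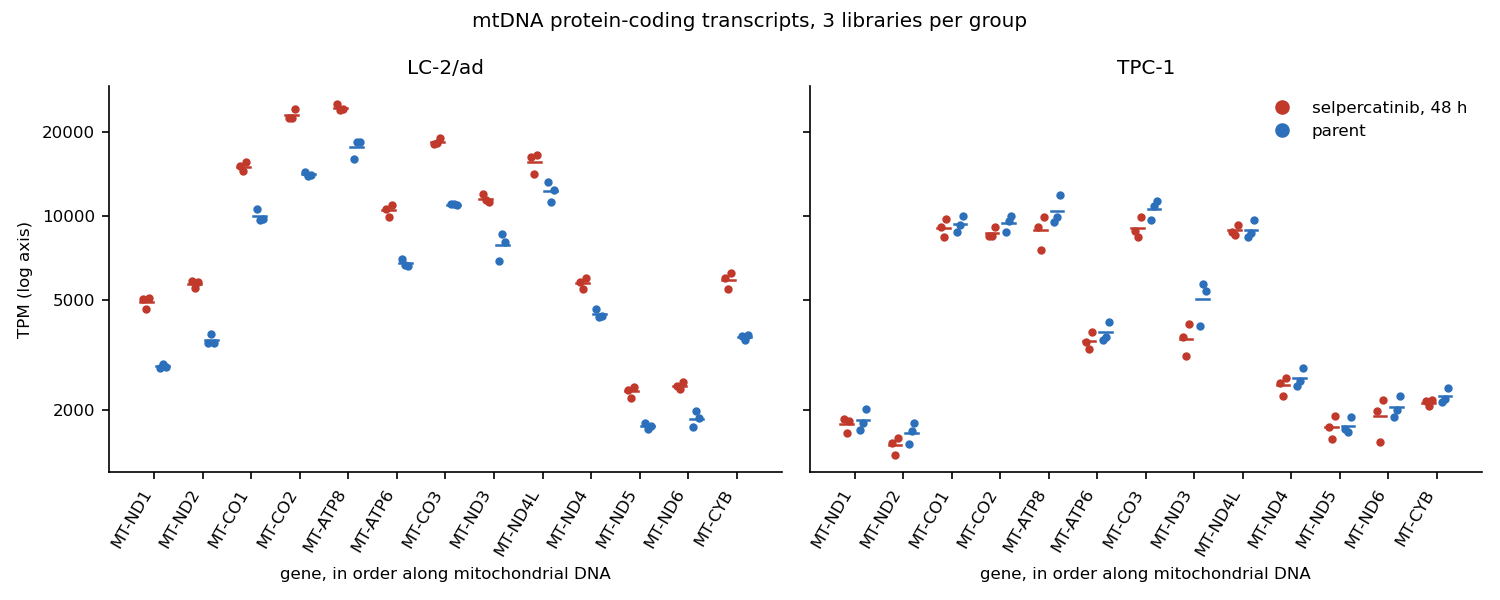
TPM of each mtDNA message (log axis) in every library, with genes in their order along mtDNA, LC-2/ad on the left and TPC-1 on the right. Red points are selpercatinib libraries, blue points parent libraries and dashes means (n = 3); the groups lie apart for 13 of 13 genes in LC-2/ad and for 0 of 13 in TPC-1.

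The make-up of the mtDNA message pool differed between the groups. As a share of the TPM of the 13 genes, MT-CO3 made up 12.7% ± 0.35 in treated and 11.2% ± 0.10 in parent LC-2/ad cells, and MT-CO2 15.8% in treated and 14.4% in parent cells. MT-ND4L made up 10.7% ± 0.55 in treated and 12.6% ± 1.08 in parent cells, and MT-ND4 3.94% ± 0.05 in treated and 4.54% ± 0.19 in parent cells. The share of MT-CO1 was 10.3% ± 0.09 in treated and 10.2% ± 0.53 in parent cells. Genes on 1 message need not have equal TPM. The ratio of MT-ATP8 to MT-ATP6 was 2.34 ± 0.10 in treated and 2.61 ± 0.29 in parent LC-2/ad cells, and that of MT-ND4L to MT-ND4 was 2.72 ± 0.11 in treated and 2.77 ± 0.15 in parent cells. In both pairs the shorter gene had the higher TPM.

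Beside the summed TPM of the 13 mtDNA genes, that of the nuclear copies was small. The 404 genes named as NUMT pseudogenes summed to 1166 ± 81.8 TPM in treated and 799 ± 29.97 TPM in parent LC-2/ad cells, equal to 0.80% of the sum of the 13 mtDNA genes in treated and 0.82% in parent cells. In TPC-1 they summed to 354 ± 39.2 TPM (0.56%) in treated and 407 ± 43.9 TPM (0.58%) in parent cells. MTATP6P1 alone had 1075 ± 73.2 TPM in treated and 731 ± 29.4 TPM in parent LC-2/ad cells. Its counterpart MT-ATP6 had 10472 ± 499 TPM in treated and 6765 ± 224 TPM in parent LC-2/ad cells. The log2 fold change of MTATP6P1 was 0.55 ± 0.05, beside 0.63 for MT-ATP6. How reads were divided between such copies is not stated, so the values of both members of each pair are uncertain.

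In TPC-1 cells the mtDNA messages did not pass the threshold in either direction. They made up 6.32%, 5.83% and 6.82% of the TPM in treated libraries, against 6.41%, 6.96% and 7.56% in parent libraries. The means were 6.33% ± 0.49 in treated and 6.97% ± 0.57 in parent cells, and the groups overlapped. By limma 0 of 13 genes were called, with 2 of them, MT-ND3 and MT-CO3, lower at an unadjusted p under 0.05; of the 12825 genes tested in TPC-1, 3.75% were called higher and 1.21% lower. All 13 log2 fold changes were below 0, between -0.47 and -0.01, with a median of -0.10 beside 0.05 for all tested genes. Treated and parent values overlapped for all 13 genes, while 16.6% of tested genes lay wholly higher and 9.23% wholly lower after treatment.

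MT-CO3, with the highest parent level in TPC-1, stood at 8818, 8399 and 9941 TPM in treated libraries, against 9683, 10865 and 11258 TPM in parent libraries. The highest treated library was above the lowest parent library, and the log2 fold change was -0.23 ± 0.08. MT-ND2, with the lowest parent level, stood at 1522, 1387 and 1589 TPM in treated libraries, against 1513, 1684 and 1801 TPM in parent libraries. Its log2 fold change was -0.15 ± 0.07. MT-ND6 stood at 1989, 1545 and 2187 TPM in treated libraries, against 1894, 2008 and 2262 TPM in parent libraries. Without treated library 2 its log2 fold change was 0.03, compared with -0.12 ± 0.12 in the full fit. MT-ND3 had the largest difference of the 13, at 3663, 3130 and 4083 TPM in treated libraries, against 4032, 5685 and 5372 TPM in parent libraries. Its log2 fold change was -0.47 ± 0.13, and without parent library 1 it was -0.62 and passed the threshold. The share of MT-ND3 within the pool was 5.72% ± 0.32 in treated and 7.19% ± 0.94 in parent cells, and that of MT-ND4L 14.0% ± 0.55 in treated and 12.8% ± 0.31 in parent cells. The ratio of MT-ATP8 to MT-ATP6 was 2.49 ± 0.19 in treated and 2.73 ± 0.11 in parent cells, and that of MT-ND4L to MT-ND4 was 3.61 ± 0.16 in treated and 3.41 ± 0.01 in parent cells. That of MT-ND5 to MT-ND6 was 0.92 ± 0.09 in treated and 0.86 ± 0.04 in parent cells.

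The LC-2/ad response minus the TPC-1 response was taken in 1 fit of all 12 libraries. It was above 0 for 13 of 13 mtDNA genes, all called, where 14.4% of 11996 tested genes were called higher and 22.2% lower. The differences lay between 0.35 ± 0.10 for MT-ND4L and 1.03 ± 0.18 for MT-ND3, with a median of 0.73 beside -0.04 for all tested genes. MT-CO3 (0.98 ± 0.09), MT-CO2 (0.83 ± 0.07), MT-ND2 (0.82 ± 0.09) and MT-ND1 (0.81 ± 0.09) followed MT-ND3. These responses share the libraries of the separate comparisons and are again a description.

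**Figure D3:**
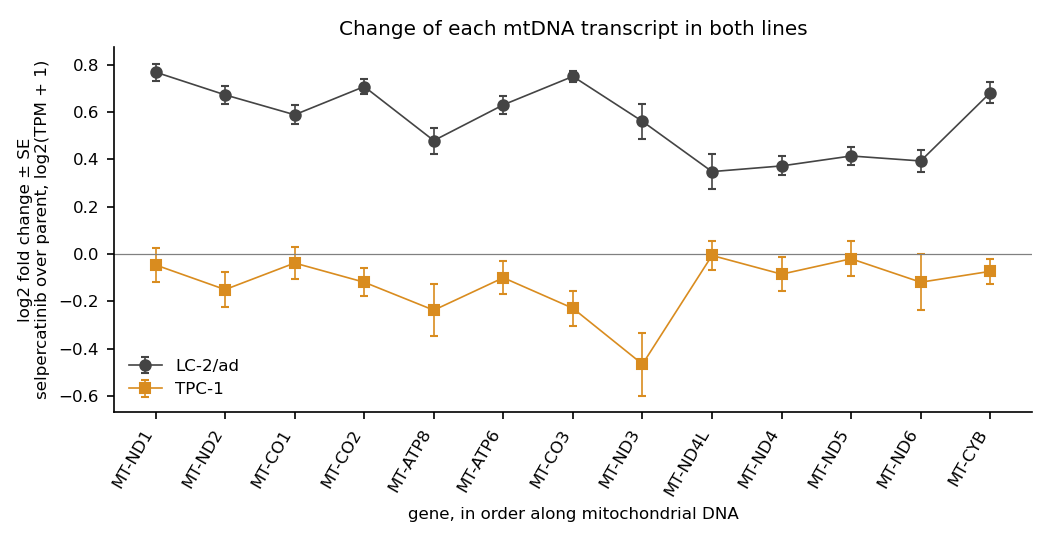
Log2 fold change of each mtDNA message on the log2(TPM + 1) scale (vertical axis, selpercatinib over parent, bars are SE) in gene order, with circles for LC-2/ad and squares for TPC-1. LC-2/ad values lie between 0.35 and 0.77 and dip from MT-ND4L to MT-ND6, and TPC-1 values lie between -0.47 and -0.01.

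In LC-2/ad more of the nuclear genes that serve these messages fell than rose. Of the 24 nuclear genes 23 had a mean of at least 1 TPM in LC-2/ad and were tested; 2 were called higher (MTERF4 and POLG2), 11 lower, and 10 were not called, where 30.6% of all tested genes were called higher and 24.4% lower. Their median log2 fold change was -0.20, beside 0.07 for all tested genes. Treated values lay wholly above parent values for 2 of the 23 (35.3% of all tested genes) and wholly below for 13 (27.6% of all tested genes). The list was chosen with this contrast known, so nothing is read from these counts. The direction of all calls in this line depended on scaling, with 4319 genes higher and 3451 lower (55.6% higher) as deposited, 3442 and 4318 (44.4% higher) after median-of-ratios scaling, and 5216 and 2833 (64.8% higher) with the mtDNA genes removed. With those genes removed and the rest rescaled, 7 nuclear genes of the list were called lower, the calls of TFB2M, POLRMT, FASTKD2 and NRF1 were lost, and 3 were called higher, with ESRRA added (0.13).

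Of the 9 genes grouped under transcription, 3 fell and 1 rose in LC-2/ad, beside 24.4% of all tested genes called lower and 30.6% higher. TFAM, which packs mtDNA and is needed at its promoters, stood at 27.4, 24.1 and 19.2 TPM in treated libraries, against 37.7, 45.6 and 43.1 TPM in parent libraries. The groups lay far apart, and its log2 fold change of -0.82 ± 0.13 was the largest of the nuclear genes here. TFB2M, which opens the promoter for the polymerase, fell by 0.33 ± 0.10, at 10.9 ± 1.01 TPM in treated and 14.0 ± 1.31 TPM in parent cells. This call was lost in 4 of the alternative fits, some of them with a library left out. POLRMT, the RNA polymerase of mitochondria, fell by 0.23 ± 0.07, at 29.6 ± 1.42 TPM in treated and 35.1 ± 2.5 TPM in parent cells. Its call was also lost in 4 alternative fits, some of them with a library left out. MTERF4, which works with the methyltransferase NSUN4 in building the mitochondrial ribosome, rose instead of falling. It stood at 54.4, 59.8 and 60.8 TPM in treated libraries, against 36.8, 34.1 and 38.3 TPM in parent libraries, with a log2 fold change of 0.67 ± 0.07. The MTERF4 annotation shares 5071 of its 9938 exon bases with SNED1 on the opposite strand, which had 3.34 ± 0.86 TPM in treated and 1.14 ± 0.28 TPM in parent cells. Strand use in the counting is not stated, so reads of such pairs cannot be told apart.

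The other genes of the transcription group were not called in LC-2/ad. TFB1M, a methyltransferase of the mitochondrial ribosomal RNA, had 9.51 ± 1.33 TPM in treated and 9.29 ± 1.10 TPM in parent cells. TEFM, the elongation factor of the polymerase, had 18.3 ± 4.61 TPM in treated and 17.9 ± 2.11 TPM in parent cells. MTERF1, which binds just past the ribosomal RNA genes, had 12.4 ± 0.86 TPM in treated and 14.5 ± 2.54 TPM in parent cells. Its relative MTERF2 had 5.69 ± 2.92 TPM in treated and 5.41 ± 0.77 TPM in parent cells. The MTERF2 annotation shares 422 of its 3626 exon bases with TMEM263 on the opposite strand. TMEM263 had 47.6 ± 2.42 TPM in treated and 26.0 ± 3.17 TPM in parent cells. MTERF3, known in mice as a brake on mtDNA transcription, had 21.9 ± 0.36 TPM in treated and 25.4 ± 2.55 TPM in parent cells. Its treated values lay below its parent values, with a log2 fold change of -0.20 ± 0.08 that became -0.29 and passed the threshold after median-of-ratios scaling.

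Among the 4 replication genes of LC-2/ad, 2 fell and 1 rose (24.4% of all tested genes lower, 30.6% higher). TWNK, the helicase that unwinds mtDNA, stood at 11.2, 12.2 and 8.65 TPM in treated libraries, against 14.1, 16.1 and 14.4 TPM in parent libraries, and its log2 fold change was -0.45 ± 0.13. Without parent library 2 this call was lost (-0.39). The TWNK annotation shares 149 of its 4133 exon bases with MRPL43 on the opposite strand. MRPL43 had 79.9 ± 6.07 TPM in treated and 82.7 ± 2.60 TPM in parent cells. SSBP1, which coats single-stranded mtDNA, fell by 0.43 ± 0.07, at 188 ± 8.32 TPM in treated and 254 ± 25.6 TPM in parent cells. POLG2, the clamp-like accessory subunit of the polymerase, rose by 0.31 ± 0.08, at 28.1 ± 0.43 TPM in treated and 22.6 ± 2.40 TPM in parent cells, but this call was lost after median-of-ratios scaling (0.22). POLG, the catalytic subunit, had 137, 158 and 106 TPM in treated libraries, against 127, 134 and 121 TPM in parent libraries. Its treated libraries lay on both sides of the parents, and its log2 fold change was 0.06 ± 0.13. Without treated library 3 it was 0.21 and passed the threshold.

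All 7 genes of RNA stability and polyadenylation had negative log2 fold changes in LC-2/ad, and 5 of them were called lower, beside 24.4% of all tested genes. SLIRP stood at 133, 133 and 129 TPM in treated libraries, against 201, 211 and 235 TPM in parent libraries. LRPPRC, its partner, stood at 71.2, 77.0 and 72.7 TPM in treated libraries, against 108, 118 and 106 TPM in parent libraries. The treated libraries of both genes were close together and well below the parents, with log2 fold changes of -0.71 ± 0.06 for SLIRP and -0.58 ± 0.06 for LRPPRC. PNPT1, a polynucleotide phosphorylase that degrades mitochondrial RNA, stood at 13.4, 18.8 and 15.99 TPM in treated libraries, against 22.8, 20.2 and 25.4 TPM in parent libraries. The highest treated library was just below the lowest parent library, and the log2 fold change was -0.49 ± 0.13. TBRG4, also called FASTKD4, which stabilises several mtDNA messages, fell by 0.37 ± 0.05, at 69.1 ± 1.82 TPM in treated and 89.9 ± 5.43 TPM in parent cells. FASTKD2, an RNA-binding protein of mitochondrial RNA granules, fell by 0.25 ± 0.07, at 16.8 ± 1.08 TPM in treated and 20.2 ± 1.10 TPM in parent cells, a call that was lost in 6 of the alternative fits. The remaining genes of this kind were not called. SUPV3L1, the helicase partner of PNPT1, had 14.1 ± 1.81 TPM in treated and 15.6 ± 1.18 TPM in parent cells, and MTPAP, the poly(A) polymerase, had 7.47 ± 0.83 TPM in treated and 8.72 ± 1.32 TPM in parent cells.

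Of the 4 regulators 3 were tested in LC-2/ad and 1 was called lower, where 24.4% of all tested genes were called lower and 30.6% higher. NRF1, a transcription factor for nuclear genes of mitochondria, fell by 0.24 ± 0.09, at 10.1 ± 0.35 TPM in treated and 12.2 ± 1.16 TPM in parent cells, and this call was lost in 9 of the alternative fits. ESRRA, a nuclear receptor that works with PGC-1 coactivators, had 83.7 ± 2.31 TPM in treated and 80.9 ± 2.14 TPM in parent cells and, among the alternatives run, was called only with the mtDNA genes removed. The ESRRA annotation shares 284 of its 3030 exon bases with TRMT112 on the opposite strand. TRMT112 had 156 ± 4.39 TPM in treated and 215 ± 9.78 TPM in parent cells. The coactivator PPARGC1B had 1.38 ± 0.06 TPM in treated and 1.73 ± 0.19 TPM in parent cells and was not called. Its relative PPARGC1A had 0.881 ± 0.18 TPM in treated and 0.650 ± 0.28 TPM in parent cells, below the minimum for a test.

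**Figure D4:**
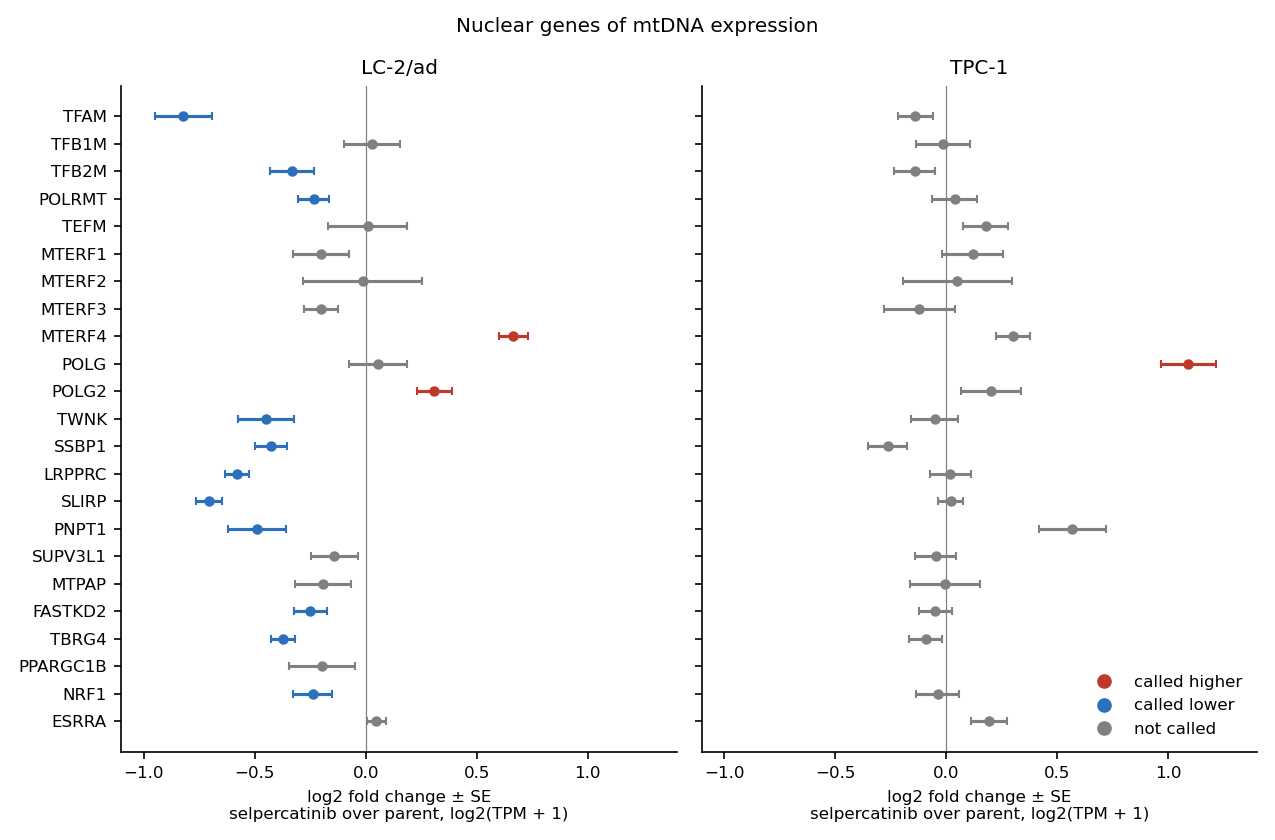
Log2 fold change of the nuclear genes on the log2(TPM + 1) scale (horizontal axis, selpercatinib over parent, bars are SE), LC-2/ad on the left and TPC-1 on the right. Red marks genes called higher, blue genes called lower and grey genes not called; LC-2/ad has 2 red and 11 blue points of 23, and TPC-1 has 1 red point of 22.

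In TPC-1 cells 22 nuclear genes were tested, 1 was called higher and 0 were called lower by limma, near the 3.75% higher and 1.21% lower of all tested genes. At an unadjusted p under 0.05, 4 were higher (POLG, MTERF4, PNPT1 and ESRRA) and 1 was lower (SSBP1), where 14.8% of all tested genes were higher and 6.67% lower. Their median log2 fold change was 0.01, beside 0.05 for all tested genes. POLG stood at 57.0, 57.7 and 71.6 TPM in treated libraries, against 28.1, 24.6 and 33.3 TPM in parent libraries. Every treated library was far above every parent library, and the log2 fold change was 1.09 ± 0.12. The POLG annotation shares 458 of its 5980 exon bases with FANCI on the opposite strand. FANCI had 57.6 ± 4.50 TPM in treated and 68.1 ± 4.77 TPM in parent TPC-1 cells, and 25.9 ± 1.91 TPM in treated and 72.4 ± 0.84 TPM in parent LC-2/ad cells.

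The next largest differences in TPC-1 did not pass the threshold. PNPT1 stood at 19.8, 29.02 and 19.2 TPM in treated libraries, against 15.9, 13.4 and 14.9 TPM in parent libraries. Treated library 2 was far above the other treated libraries, and the log2 fold change of 0.57 ± 0.15 was 0.39 without it. MTERF4 stood at 24.1, 25.4 and 24.2 TPM in treated libraries, against 20.9, 19.6 and 18.8 TPM in parent libraries. Its groups lay apart, as in LC-2/ad, with a log2 fold change of 0.30 ± 0.08. SSBP1 stood at 232, 197 and 246 TPM in treated libraries, against 246, 290 and 273 TPM in parent libraries, with the highest treated value just below the lowest parent value, and its log2 fold change was -0.26 ± 0.09. POLG2 stood at 8.66, 7.98 and 8.24 TPM in treated libraries, against 8.49, 5.92 and 7.02 TPM in parent libraries, and the groups overlapped (0.20 ± 0.13). ESRRA stood at 19.5, 19.0 and 18.0 TPM in treated libraries, against 17.3, 15.9 and 15.8 TPM in parent libraries, with no overlap (0.19 ± 0.08).

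The remaining TPC-1 values were close between the groups. TFAM averaged 36.0 ± 2.25 TPM in treated and 39.7 ± 2.69 TPM in parent cells, SLIRP 229 ± 11.3 TPM in treated and 225 ± 11.5 TPM in parent cells, and LRPPRC 74.8 ± 9.11 TPM in treated and 73.5 ± 4.92 TPM in parent cells. TFB2M averaged 11.7 ± 0.87 TPM in treated and 13.04 ± 0.10 TPM in parent cells, with its treated values below its parent values. The log2 fold changes of TFB1M, POLRMT, TEFM, MTERF1, MTERF2, MTERF3, TWNK, SUPV3L1, MTPAP, FASTKD2, TBRG4 and NRF1 lay between -0.12 and 0.18. PPARGC1B, at 0.536 ± 0.25 TPM in treated and 0.541 ± 0.25 TPM in parent cells, and PPARGC1A, at 0.137 ± 0.10 TPM in treated and 0.203 ± 0.12 TPM in parent cells, were below the minimum for a test.

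**Figure D5:**
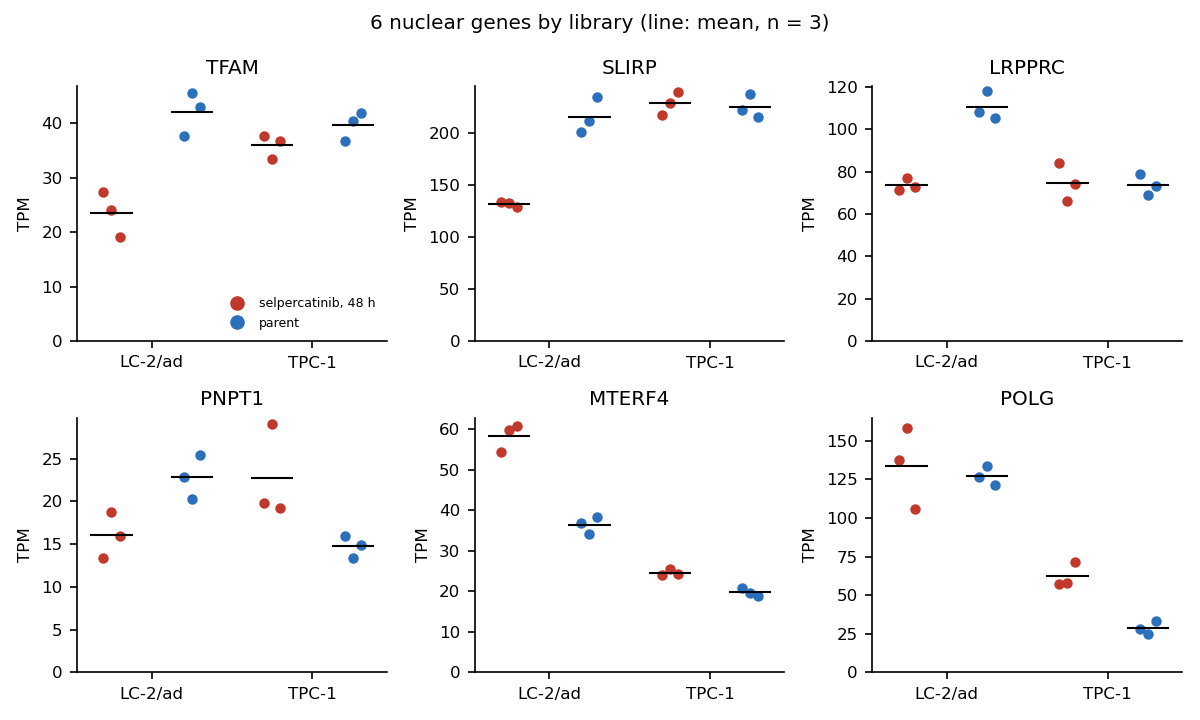
TPM of TFAM, SLIRP, LRPPRC, PNPT1, MTERF4 and POLG (vertical axis, from 0) in every library, with red points for selpercatinib, blue points for parent cells and lines for means (n = 3). In LC-2/ad the treated points of TFAM, SLIRP and LRPPRC lie below the parent points, and in TPC-1 those of POLG lie above, at 57.0 to 71.6 TPM in treated and 24.6 to 33.3 TPM in parent cells.

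The LC-2/ad response minus the TPC-1 response was called for 7 of 22 nuclear genes, 1 higher and 6 lower, where 14.4% of all tested genes were called higher and 22.2% lower. The count is a description. The difference was lower for TFAM (-0.68 ± 0.16), SLIRP (-0.73 ± 0.09), LRPPRC (-0.60 ± 0.12), PNPT1 (-1.06 ± 0.22), POLG (-1.04 ± 0.20) and TBRG4 (-0.28 ± 0.09), and higher for MTERF4 (0.36 ± 0.10). PNPT1 had opposite signs, -0.49 in LC-2/ad against 0.57 in TPC-1. The median over the 22 genes was -0.20. The call of TBRG4 was lost in 8 alternative fits.

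The untreated lines were compared through their parent libraries, a contrast that the rule for the list does not use. Line, medium and table cannot be told apart in it. The parent values were known when the list was chosen, so the counts and p-values of its genes are a description. By limma over 11812 genes, 47.9% of tested genes were called higher in LC-2/ad and 29.2% lower, with a median log2 difference of 0.21. Median-of-ratios scaling moved that median by -0.24 and turned 5656 higher and 3448 lower calls (62.1% higher) into 4287 and 4727 (47.6% higher), so differences near 0.21 are near the level of all genes. Of the 13 mtDNA genes 9 were higher in LC-2/ad and 0 lower (also 0 at an unadjusted p under 0.05). Their median log2 difference was 0.65. MT-ND2 differed most, with 3580 ± 158 TPM in LC-2/ad and 1666 ± 145 TPM in TPC-1 parents (1.11 ± 0.06, limma adjusted p = 5.09e-07). MT-ATP6 followed with 6765 ± 224 TPM in LC-2/ad and 3812 ± 305 TPM in TPC-1 parents (0.83 ± 0.06, limma adjusted p = 1.59e-06). Also higher in LC-2/ad were MT-ND4 (0.77 ± 0.06), MT-ATP8 (0.76 ± 0.09), MT-CYB (0.71 ± 0.05), MT-ND3 (0.65 ± 0.13), MT-ND1 (0.65 ± 0.06), MT-CO2 (0.58 ± 0.05) and MT-ND4L (0.46 ± 0.07). The 4 genes not called were MT-CO1, MT-CO3, MT-ND5 and MT-ND6. MT-CO1 had 9999 ± 473 TPM in LC-2/ad and 9314 ± 613 TPM in TPC-1 parents, and MT-CO3 had 10961 ± 44.5 TPM in LC-2/ad and 10602 ± 820 TPM in TPC-1 parents. MT-ND5 had 1758 ± 44.0 TPM in LC-2/ad and 1766 ± 116 TPM in TPC-1 parents, and MT-ND6 had 1869 ± 124 TPM in LC-2/ad and 2055 ± 189 TPM in TPC-1 parents. After median-of-ratios scaling 7 of the 13 were called higher and 3 lower, namely MT-CO3 (-0.23), MT-ND5 (-0.29) and MT-ND6 (-0.42). Without TPC-1 parent library 3 MT-CO1 was called higher (0.15), and without TPC-1 parent library 1 MT-ND6 was called lower (-0.19).

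Of 22 nuclear genes tested between the parent lines, 14 were higher in LC-2/ad, 2 lower and 6 not called. Of all genes tested in this contrast 47.9% were called higher and 29.2% lower. ESRRA had 80.9 ± 2.14 TPM in LC-2/ad and 16.3 ± 0.83 TPM in TPC-1 parents (2.24 ± 0.06, limma adjusted p = 6.57e-09). POLG had 127 ± 6.12 TPM in LC-2/ad and 28.7 ± 4.37 TPM in TPC-1 parents (2.12 ± 0.10, limma adjusted p = 1.49e-07). MTERF1 had 14.5 ± 2.54 TPM in LC-2/ad and 3.84 ± 0.25 TPM in TPC-1 parents (1.67 ± 0.14), and POLG2 had 22.6 ± 2.40 TPM in LC-2/ad and 7.14 ± 1.29 TPM in TPC-1 parents (1.54 ± 0.13). These 4 differences were far above the shift between scalings. POLRMT (0.94 ± 0.10), MTERF4 (0.85 ± 0.07), MTERF3 (0.84 ± 0.10), PNPT1 (0.60 ± 0.10), LRPPRC (0.58 ± 0.07) and TEFM (0.56 ± 0.11) were also higher in LC-2/ad. NRF1 (0.41 ± 0.10), SUPV3L1 (0.38 ± 0.09), TWNK (0.37 ± 0.09) and TBRG4 (0.33 ± 0.08) completed the 14, and these calls were lost after median-of-ratios scaling. TFB1M and FASTKD2 were lower in LC-2/ad, with log2 differences of -0.57 ± 0.12 and -0.34 ± 0.07. TFAM, TFB2M, SSBP1 and SLIRP differed by at most 0.09 in size and MTPAP and MTERF2 by 0.11 and -0.10, and these 6 were not called. After median-of-ratios scaling 10 nuclear genes were called higher and 4 lower, with SSBP1 (-0.37) and SLIRP (-0.34) then among the lower ones. Among all tested genes 4287 were then called higher and 4727 lower.

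Other genes of the same pathways were taken from lists that were written down by function, with earlier results of these data known. Of 20 genes of mtDNA maintenance and nucleotide supply, 11 fell and 2 rose in LC-2/ad, and their median log2 fold change was -0.30. Of all genes tested in this line 24.4% were called lower and 30.6% higher, with a median of 0.07, and the counts of each list here stand beside those shares. FEN1, a flap endonuclease that also serves nuclear replication, had 27.8 ± 1.62 TPM in treated and 91.8 ± 0.90 TPM in parent cells (-1.69 ± 0.05), and the nuclease and helicase DNA2 had 4.82 ± 1.25 TPM in treated and 11.96 ± 0.67 TPM in parent cells (-1.18 ± 0.16). With members such as FEN1, the counts of this list do not describe mtDNA maintenance alone. Of 26 genes that process or modify mitochondrial RNA, 9 fell and 3 rose, with a median of -0.12; the ribosomal RNA methyltransferase MRM2 fell by 0.49 ± 0.06, and FASTK, which is needed for the MT-ND6 message, rose by 0.44 ± 0.06. Of 12 translation factors 5 fell and 2 rose (median -0.22), led by the elongation factors GFM1 (-0.41 ± 0.07) and TSFM (-0.39 ± 0.11). Of 9 further biogenesis regulators tested 3 fell and 1 rose (median 0.00), led by the GABP subunit GABPB1 (-0.40 ± 0.09) and the coactivator PPRC1 (-0.38 ± 0.06).

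In TPC-1 the same lists held 2 called genes, both higher and both among the 26 genes of RNA processing, where 3.75% of all tested genes were called higher and 1.21% lower. LACTB2, an endoribonuclease of the mitochondrial matrix, had 31.5 ± 4.10 TPM in treated and 20.3 ± 0.53 TPM in parent cells (0.60 ± 0.10). GTPBP3, which modifies transfer RNA, had 16.9 ± 1.14 TPM in treated and 11.5 ± 1.45 TPM in parent cells (0.52 ± 0.11), and in LC-2/ad it fell by 0.29 ± 0.07. By limma 0 of the 20 maintenance genes, 0 of the 10 regulators and 0 of the 12 translation factors were called in TPC-1, with 2, 1 and 5 of them at an unadjusted p under 0.05, as were 21.5% of all tested genes. In the maintenance list SLC25A4, the adenine nucleotide carrier, had a log2 fold change of 0.30 ± 0.09 and ATAD3B 0.29 ± 0.17. Among the regulators CREB1 had 0.21 ± 0.09 and ESRRG -0.51 ± 0.35, and among the translation factors MTRF1 had 0.30 ± 0.16 and GFM2 0.28 ± 0.11. No mtDNA gene of ribosomal or transfer RNA was found by symbol, so none was analysed here.

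Promoter sequence was looked at because several nuclear genes of the list fell together and NRF1, which is known to bind promoters of mitochondrial genes, is among them. The motif searched, on both strands, was GCGC, then A and any base (N), then GCGC again; its matches include a stricter palindrome in which that base is T. In windows of 300 bases (250 before to 50 after the gene start, RefSeq, GRCh38.p14), the looser motif was present in 5.78% of 35116 windows and the stricter one in 1.24%. The 21 nuclear genes of the list with a window had 25 windows. Of these genes 5 held the looser motif and 2 of the 5, POLRMT and TFB1M, the stricter one. The percentages above are of windows and these counts are of genes, so they are not alike. The 5 stretches are shown 5′ to 3′ on the strand of the gene, with the motif in capitals (TFAM chr10:58385337-58385366 plus, POLRMT chr19:633542-633571 minus, TFB1M chr6:155314597-155314626 minus, ESRRA chr11:64305421-64305450 plus, POLG2 chr17:64497049-64497078 minus):
TFAM: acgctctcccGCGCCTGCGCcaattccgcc
POLRMT: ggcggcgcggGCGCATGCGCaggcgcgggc
TFB1M: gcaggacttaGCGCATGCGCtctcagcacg
ESRRA: tcgtccgggcGCGCAGGCGCcgcccgcccc
POLG2: cacctccgttGCGCCTGCGCcgtggcctct
The motif stood in genes of each kind of result in LC-2/ad, with TFAM and POLRMT called lower, POLG2 called higher, and TFB1M and ESRRA not called. In TFAM and POLG2 the capitals show the motif as read from the opposite strand, and in POLRMT the bases after the capitals complete a further match that overlaps it. A match describes these letters only. MTERF3, TWNK and NRF1 had no window.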

How the data were processed

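RNA-seq gave gene expression for 12 libraries of LC-2/ad and TPC-1 cells. Per the submitters' processing notes, bcl2fastq 2.20.0, Salmon and the GRCh38 build were used, with no roles given, and the annotation, filters and strand use are not given in the sources used here. The authors deposited TPM per gene and library, separately for each line, and every column summed to 1000000 within rounding. TPM keep no read counts, so depth is unknown and precision rests on how libraries of a group spread.

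Of 37247 Ensembl identifiers 34436 (92.5%) had a symbol and 34620 occurred in GENCODE 29, which supplied gene coordinates (GRCh38). The member genes and the lists of other pathway genes were chosen with earlier results of these data known. The named genes are the 37 members; values per library are given for the mtDNA genes with the highest and lowest parent level and MT-ND6, and for the 6 nuclear members with the largest absolute log2 fold change in each line; other lists are given by counts with their 2 largest changes. A gene outside these rules was named after its values were seen. A further thyroid marker is not reported here and enters no marker count or sum.

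Groups came from sample titles. log2(TPM + 1) was compared by limma 3.58.1 (R 4.3.3, lmFit, then eBayes with trend, two-sided). Genes entered at a mean of 1 TPM or more, in each line where both were used, with Benjamini-Hochberg adjustment over all genes tested and a threshold of 0.05; errors of log2 fold changes are limma's moderated SE. The comparisons were treated against parent in each line (6 libraries), the difference of these responses (12 libraries) and the parent lines (6 libraries). The procedure was tested on simulated data. The alternatives were pseudocounts of 0.1 and 5, no filter on low values, a minimum mean of 5 TPM, median-of-ratios scaling, mtDNA genes removed, eBayes without trend, replicate number as a block, and each library left out in turn. Selected NUMT copies on chromosome 1 were aligned to mtDNA genes with blastn 2.17.0. Tables were read with data.table, version 1.17.8, and pandas 2.3.3 (Python 3.11.15, numpy 2.4.6) and figures drawn with matplotlib 3.10.9.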

Additional observations from a re-analysis of the deposited data

Results flagged for a closer look

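The LC-2/ad response to selpercatinib minus the TPC-1 response passed limma's threshold (adjusted over 11996 genes, log2 scale) for 20 of the 35 genes tested (14 higher and 6 lower, where 14.4% of all genes were called higher and 22.2% lower), and each is given for that reason. The genes were chosen with the responses known, so these values are a description. Among complex I messages the differences were 0.81 for MT-ND1, 0.82 for MT-ND2, 1.03 for MT-ND3, 0.35 for MT-ND4L, 0.46 for MT-ND4, 0.43 for MT-ND5 and 0.51 for MT-ND6. Among cytochrome oxidase messages they were 0.63 for MT-CO1, 0.83 for MT-CO2 and 0.98 for MT-CO3. ATP synthase messages gave 0.72 for MT-ATP8 and 0.73 for MT-ATP6, and cytochrome b, MT-CYB, gave 0.75. Of the nuclear genes, MTERF4 was higher by 0.36. Negative differences were -0.68 for TFAM, -1.04 for POLG, -0.60 for LRPPRC, -0.73 for SLIRP, -1.06 for PNPT1 and -0.28 for TBRG4. The log2 fold change of POLG was 0.06 in LC-2/ad, against 1.09 in TPC-1, and that of PNPT1 was -0.49 in LC-2/ad, against 0.57 in TPC-1.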

How the results depend on the processing

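The 13 mtDNA genes were called higher in LC-2/ad in every alternative run that holds them; with the mtDNA genes removed they have no value. In LC-2/ad the count of nuclear genes called higher was 2 and fell to 1 with median-of-ratios scaling and became 3 with the mtDNA genes removed, where ESRRA passed (2 to 3 when a library was left out), and the count called lower was 11 and fell to 7 with the mtDNA genes removed and to between 7 and 9 when a library was left out, the lowest without selpercatinib library 3. In TPC-1 the count of mtDNA genes called lower was 0 and between 0 and 1 when a library was left out, with MT-ND3 called without parent library 1, and the count of nuclear genes called higher was 1 and became 2 at a mean TPM of at least 5, where PNPT1 passed (limma adjusted p = 0.0432). For the difference of the responses, 11 of 13 mtDNA genes were called without a filter on low values. Between the parent lines the count of mtDNA genes called lower was 0 and became 3 with median-of-ratios scaling, and lay between 0 and 1 when a library was left out (1 without TPC-1 parent library 1); the count of nuclear genes called lower was 2 and became 4 with that scaling. The parent difference of MT-CO3 was 0.05 and reversed to -0.23 with median-of-ratios scaling. In LC-2/ad, leaving out parent library 2 gave a call to MTERF1 (-0.33) and leaving out parent library 1 one to MTERF3 (-0.25), which was also called after median-of-ratios scaling (-0.29), where 12 nuclear genes were called lower. The cause of these shifts was not tested.

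Replicate numbers are shared between groups, but deviations of libraries with the same number correlated at -0.05 to 0.05 and not every library correlated best with its own number, so the numbers were not taken to pair the libraries. With the number as a replicate block, 13 mtDNA genes and 2 nuclear genes were called higher and 9 nuclear genes lower in LC-2/ad, and 1 mtDNA gene, MT-ND6, was called lower between the parent lines. The unknown read depth limits what can be said of genes near 1 TPM.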

Other observations

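The nuclear copy MTND1P23 (chr1:629062-629433), looked at after its values were seen, went against the level of its mtDNA counterpart between the lines. Over the 352 bases aligned it was 99.1% identical to MT-ND1, with 3 mismatches. It had 1.07 ± 0.26 TPM in treated and 0.494 ± 0.57 TPM in parent LC-2/ad cells, and 26.0 ± 7.32 TPM in treated and 32.6 ± 1.34 TPM in parent TPC-1 cells (SD, n = 3 each). MT-ND1 itself was higher in LC-2/ad parents, at 2880 ± 48.3 TPM, than in TPC-1 parents, at 1844 ± 162 TPM. MTATP6P1 and MTND2P28 were also higher in LC-2/ad than in TPC-1 parents, with log2 differences of 1.18 ± 0.08 and 0.42 ± 0.15.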
